A study of Mus musculus with 36 samples.

Results

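Morulae, the small balls of joined cells that mouse embryos form before the blastocyst, were set against 3 grown tissues: liver, epididymal white adipose tissue (eWAT, the fat pad beside the testis) and gastrocnemius, the large calf muscle. All 6 morula libraries and all 18 tissue libraries (6 of each tissue) were taken from a series of 36 samples. A gene was counted as embryo-restricted where morulae were higher in the test against each of the 3 tissues and the lowest morula library lay above the highest of the 18 tissue libraries. The term orders these libraries and does not state that a tissue lacks the gene. Of 12752 genes tested, 3737 (29.3%) were embryo-restricted.

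The labels give wild-type C57BL/6 for the mice, and the study's methods C57BL/6N. For the morulae, eggs of superovulated females that had met neither diet were fertilized in vitro with cauda sperm of males kept for 2 weeks on a high-fat diet (HFD, 3 libraries) or a low-fat diet (LFD, 3 libraries), and embryos were picked singly after culture and sequenced in bulk. How many embryos a library holds is not given in the labels. The tissues came from sons of males fed HFD for the same 2 weeks and unexposed females; the sons ate chow, so that the HFD label of a tissue sample describes the father. Each tissue had 3 glucose-tolerant (HFDt) and 3 glucose-intolerant (HFDi) sons, but the count columns do not tell them apart, and each tissue was 1 group of 6. The age of the sons at collection is not in the labels. Nothing in the labels says which libraries came from separate cultures, litters or animals, so that p-values measure the spread between these libraries.

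In the morula the blastomeres flatten against each other, some come to lie inside, and the first split begins between trophectoderm, the epithelium that will build the placenta, and the inner cell mass, which will form the fetus. By then most RNA stored in the egg has been replaced by transcripts of the embryo's own genome, the cells divide in quick succession without growth, and the DNA carries little methylation. Liver, fat and muscle consist mainly of cells that no longer divide and make large amounts of a few products, mixed with blood, vessel and connective tissue cells. In such bulk samples, fewer cells of a type and less RNA per cell cannot be told apart.

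These 4 promoters are shown first because the results below turn on their genes: the pluripotency factors Nanog and Pou5f1 (also called Oct4) and, with no count in any tissue library, Khdc3 of the maternal protein complex under the egg surface, and Pramel6 of a gene family active in early embryos. Each window runs from 250 bases before to 50 bases after the RefSeq start (GRCm38.p6), 5′ to 3′ on the gene's strand, with matches to the searched motifs in capitals.
Nanog (chr6:122707239-122707538, + strand): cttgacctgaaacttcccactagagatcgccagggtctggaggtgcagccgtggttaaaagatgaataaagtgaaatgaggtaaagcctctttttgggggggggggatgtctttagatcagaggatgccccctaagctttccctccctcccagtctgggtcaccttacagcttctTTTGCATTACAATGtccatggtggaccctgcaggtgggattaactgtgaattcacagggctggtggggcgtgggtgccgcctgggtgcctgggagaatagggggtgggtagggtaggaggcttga
Pou5f1 (chr17:35505782-35506081, + strand): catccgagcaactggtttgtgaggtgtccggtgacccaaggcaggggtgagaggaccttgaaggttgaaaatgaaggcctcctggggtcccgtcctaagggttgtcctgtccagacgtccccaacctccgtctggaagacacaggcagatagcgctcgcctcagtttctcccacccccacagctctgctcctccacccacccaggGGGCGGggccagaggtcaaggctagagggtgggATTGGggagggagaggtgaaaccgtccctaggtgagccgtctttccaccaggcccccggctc
Khdc3 (chr9:73102148-73102447, + strand): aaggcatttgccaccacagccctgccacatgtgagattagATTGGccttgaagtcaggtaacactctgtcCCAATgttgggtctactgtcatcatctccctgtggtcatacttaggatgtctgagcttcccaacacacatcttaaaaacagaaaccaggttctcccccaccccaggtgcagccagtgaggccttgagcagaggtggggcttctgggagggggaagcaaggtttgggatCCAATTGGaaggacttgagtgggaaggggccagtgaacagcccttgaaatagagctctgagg
Pramel6 (chr2:87506315-87506614, + strand): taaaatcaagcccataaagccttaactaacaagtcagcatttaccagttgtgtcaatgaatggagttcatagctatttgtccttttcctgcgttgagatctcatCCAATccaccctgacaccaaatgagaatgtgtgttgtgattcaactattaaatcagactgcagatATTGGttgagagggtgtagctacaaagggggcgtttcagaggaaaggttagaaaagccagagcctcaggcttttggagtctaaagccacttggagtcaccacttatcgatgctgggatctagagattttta

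Both strands were searched for 4 motifs: the composite Sox-Oct element (CATTGTN followed directly by ATGCAAA), the octamer ATGCAAAT, the GC box GGGCGG and the CCAAT box CCAAT. The Sox-Oct element overlaps the octamer in all but the octamer's last base. Nanog held the Sox-Oct element on the minus strand, 75 bases before its start, and was the only one of 27025 RefSeq promoters of this length with these letters. Only these exact letters were searched, so that Sox-Oct elements with other letters were not counted. Pou5f1 held a GC box 45 bases and a CCAAT box 12 bases before its start; Khdc3 held 4 CCAAT boxes and Pramel6 held 2. CCAAT occurred in 37.9% and the GC box in 35.9% of all 27025 promoters, and the octamer in 1.75%. Of the 9564 tested genes with a promoter of the same symbol, 63.7% held a GC box and 38.8% a CCAAT box, against 66.0% and 40.7% of the 2785 embryo-restricted ones. In the 72 embryo-restricted genes of this kind with no count in any tissue library, 34.7% of promoters held a GC box and 55.6% a CCAAT box, given as a description with no test. The octamer was in 1.41% of the 9564 promoters, 1.40% of the 2785 and 6.94% (5) of the 72, likewise with no test. The RefSeq start of Khdc3 lies within the gene's span in the count table, so that its window covers annotated gene sequence.

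Morula libraries held 11471251 to 12153141 counts, liver 2036237 to 2552454, eWAT 1338149 to 4055537 and gastrocnemius 369772 to 2749920. Morula libraries were made with the Nextera kit from RNeasy RNA and read in pairs, and tissue libraries with a QuantSeq 3′ kit, which reads transcript ends, from TRIzol RNA in single reads. Kit and stage cannot be told apart in any contrast with a tissue. Library 1 of gastrocnemius was the shallowest (369772 counts), and library 4 of eWAT stood apart from the other eWAT libraries in epithelial genes, with Epcam at 142 CPM (counts scaled to a common library total) against at most 0.386 in the other 5. Pearson's r between morula libraries on the log scale was 0.982 to 0.986, and no pair of libraries of a group was as close as sampling noise, with a chi-square per degree of freedom of at least 8.20 in morula. The labelled tissues carried their markers: the summed level of 20 liver markers was 108229 to 145316 CPM in liver, that of 12 adipose markers 31324 to 63737 in eWAT, and that of 15 muscle markers 85440.0 to 172795 in gastrocnemius, against at most 38.5, 26.4 and 33.2 in morula. Levels are CPM after TMM scaling, which sets libraries side by side by the trimmed mean of their gene ratios, and differences are log2 of morula over tissue ± SE from edgeR's quasi-likelihood test with Benjamini-Hochberg adjustment over all 12752 genes.

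Most of the transcriptome differed between morula and tissue. Against liver, 5502 genes (43.1%) were higher and 5227 (41.0%) lower in morula. Against eWAT, 5227 genes (41.0%) were higher and 5932 (46.5%) lower, and against gastrocnemius 5450 (42.7%) were higher and 4973 (39.0%) lower. Morulae were higher than each of the 3 tissues in 4175 genes (32.7%) and lower than each in 3548 (27.8%). The reverse of the embryo-restricted genes, lower in each test and with the highest morula library below all 18, took in 1960 genes (15.4%). With the share of all genes so large, the counts of the groups below are set beside these percentages. The median log2 difference over all genes tested was 0.06 against liver, -0.25 against eWAT and 0.15 against gastrocnemius, and 0.36, -0.76 and 0.55 when libraries were scaled by their totals alone.

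Among the 3737 embryo-restricted genes the median log2 difference was 3.39 against liver, 3.15 against eWAT and 3.39 against gastrocnemius, the same to 2 decimals with genes at 0 in a tissue set to their bound. Of these, 188 had no count in any of the 18 tissue libraries (110 protein-coding genes and 31 processed pseudogenes), and 564 had at most 3 counts in each. The test sets a floor on abundance, and a gene that passed it only through its morula counts had to differ. Embryo-restricted shares of the gene lists below can hold such members and are given as descriptions. Of 11000 genes with at least 10 counts in every morula library, 1519 were not tested and 552 had no count in the 18. A count of 0 in all 6 libraries of a tissue allows 3 counts, or 0.282 CPM in liver, 0.122 in eWAT and 0.413 in gastrocnemius, and the bounds given as at least a number of fold are set against these floors, for counting error alone.

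**Figure D1:**
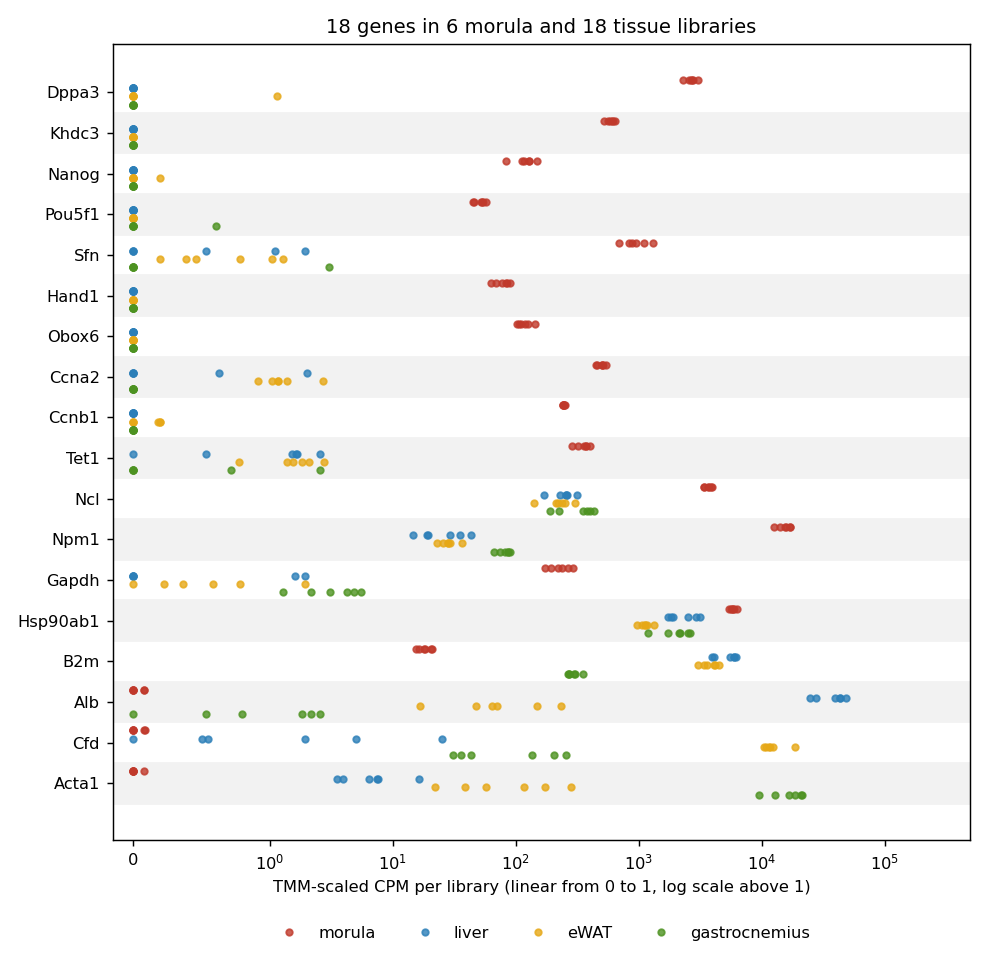
Level of 18 genes in every morula, liver, eWAT and gastrocnemius library, in TMM-scaled CPM on an axis that is linear from 0 to 1 and logarithmic above; each point is 1 library. Nanog, Pou5f1, Dppa3 and Khdc3 lie above all 18 tissue libraries in all 6 morula libraries, while B2m lies below them.

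The pluripotency factors, which keep the inner cells able to form any tissue of the fetus, were a group in which morulae and tissues stood far apart. Of 25 members 21 were tested, and 19 (90.5%, against 29.3% of all genes) were embryo-restricted, with median log2 differences of 10.88, 9.80 and 8.87 against liver, eWAT and gastrocnemius, or 7.51, 8.65 and 7.18 with members at 0 in a tissue set to their bound. Their summed level was 6041 to 6914 CPM in morula and at most 167 in liver, 369 in eWAT and 242 in gastrocnemius. Members with few or no tissue counts passed the filter through morula alone, so that their call followed largely from the filter. Without the 4 members whose transcript ends occur in another gene, 15 of 17 were embryo-restricted. Dppa3 (Stella), which shields the maternal genome from demethylation, was the highest of them, with 2291 to 3059 (median 2701) CPM in morula and 0 in every liver and gastrocnemius library. In eWAT it reached 1.15 CPM in 1 library, from 5 counts in all, and its morula level was at least 9505-fold that of liver and at least 6489-fold that of gastrocnemius. The morula and tissue libraries of Dppa3 did not overlap (13.51 ± 0.48 against eWAT).

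Nanog, a homeobox factor of the inner cells, was at 82.8 to 148 (median 122) CPM in morula, with 1 count in all eWAT libraries together and none in liver or gastrocnemius. It was at least 423-fold higher than in liver, at least 289-fold higher than in gastrocnemius, and 2925-fold (95% counting interval 525 to 115561) higher than in eWAT. Pou5f1, the POU factor that binds the octamer, was at 44.9 to 57 (median 52.5) CPM with 1 count in gastrocnemius and none in liver or eWAT, at least 182-fold above liver and at least 419.9-fold above eWAT. For both genes every morula library was above every tissue library. Tdgf1 (Cripto), a Nodal co-receptor, was at 321 to 369 (median 333) CPM, Lin28a, which blocks maturation of let-7 miRNAs, at 228 to 279 (median 257), and Zfp42 (Rex1) at 43.8 to 52.3 (median 49.4). The tissue libraries held at most 0.386 CPM of Tdgf1 and 0.531 of Lin28a, and no count of Zfp42. Dppa2, a chromatin factor of early embryos, was at 359 to 401 (median 375) CPM with 1 count in all 18 tissue libraries, and Dppa5a, an RNA-binding protein, at 149.5 to 215 (median 168) with none, at least 416-fold higher in each tissue. Of the last 300 bases of Dppa5a, 74 of 251 windows of 50 bases also occur in another gene's transcript, and 30 of 251 for Pou5f1, whereas none did for Nanog, Dppa3 and Lin28a.

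The exceptions in the group were a pair of Krüppel-like factors that adult cells use as well. Klf4 was at 43.3 to 52 (median 49.2) CPM in morula, 1.28 to 6.15 (median 2.51) in liver, 73.6 to 268 (median 164) in eWAT and 21.9 to 72.4 (median 53.5) in gastrocnemius. It was higher than in liver (4.05 ± 0.35, adjusted p = 1.2e-11) and lower than in eWAT (-1.77 ± 0.24, adjusted p = 1.1e-07), and its morula and gastrocnemius libraries overlapped (adjusted p = 1). Klf2 was at 17.8 to 25.2 (median 20.6) CPM in morula and lower than in eWAT (-2.17 ± 0.32, adjusted p = 3.3e-07), where libraries were at 36.8 to 139 (median 102). Against gastrocnemius Klf2 was lower by TMM (-1.36 ± 0.33, adjusted p = 4.2e-04), and the difference was 0.07 once morula counts were divided by gene length. Sox2, the partner of Pou5f1 at the Sox-Oct element, was too low to be tested, at 0.156 to 1.21 (median 0.774) CPM in morula with 2 counts in the tissues.

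Most tested trophectoderm genes were higher in morula than in each tissue. Of 20 members 16 were tested, 11 (68.8%, against 29.3% of all genes) were embryo-restricted and Id2 was below all 18, and the median log2 differences were 4.91, 4.53 and 5.52, the last 5.10 with members at 0 set to their bound. Sfn (14-3-3 sigma), an adaptor protein of epithelia, was at 688 to 1298 (median 915) CPM in morula and at most 1.92 in liver, 1.28 in eWAT and 3.05 in gastrocnemius. Its difference was 10.66 ± 0.44 against liver, 10.39 ± 0.40 against eWAT and 10.40 ± 0.45 against gastrocnemius, and the groups lay far apart. Lrp2 (megalin), an endocytic receptor, was at 787 to 1099 (median 1014) CPM in morula; the highest tissue value, 89.2, was that of eWAT library 4, and no other eWAT library passed 8.64. Against eWAT its difference was 5.66 ± 0.64 (adjusted p = 3.5e-09). Dab2, an adaptor that works with Lrp2 in endocytosis, was at 298 to 405 (median 382) CPM in morula and 71.8 to 232 (median 93.2) in eWAT, with a difference of 1.73 ± 0.23 (adjusted p = 4.4e-08) and again the highest tissue value in eWAT library 4.

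Several transcription factors of the lineage were embryo-restricted, some at low levels, while Eomes, Gata2, Tfap2a and Elf5 were too low to be tested. Tead4, which with Yap1 turns on the trophectoderm program, was at 142 to 171 (median 163) CPM in morula and at most 10.7 in any tissue library. Gata3 was at 36.4 to 45.8 (median 40.1) CPM against at most 8.89, and Cdx2 at 5.83 to 13.4 (median 10.7) against at most 0.559, from 2 tissue counts. Hand1, a factor of trophoblast giant cells, was at 63.6 to 89.4 (median 80.8) CPM with no count in any tissue, at least 188.6-fold higher than in each. Aqp3, a water and glycerol channel, was at 38.8 to 84.2 (median 62.5) CPM with 1 count in all tissues. The keratins behaved differently from each other: Krt8 was embryo-restricted at 12.2 to 17.8 (median 15) CPM, while Krt18, its partner in the filament, was at 30.8 to 40.7 (median 34.8) and lower than in liver (-2.11 ± 0.51, adjusted p = 3.8e-04), where libraries were at 111 to 229 (median 138). Krt18 against eWAT was 1.06 ± 0.51 (adjusted p = 0.0539), with 70.7 CPM in eWAT library 4, far above the median of 4.62, and 2.90 without that library, past the threshold. Divided by gene length, Krt18 was -0.36 against liver, no longer past the threshold. Id2, an inhibitor of helix-loop-helix factors, was at 0.581 to 2.19 (median 1.19) CPM in morula and 649 to 1493 (median 819) in liver, -9.46 ± 0.43 (adjusted p = 1.1e-17), and below every tissue library.

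Of the 10 primitive endoderm genes, which mark the later inner cell layer, 7 were tested. The only embryo-restricted one was Gata6 (14.3%, against 29.3% of all genes). Gata6 was at 258 to 316 (median 289) CPM in morula, 6.27 to 19.1 (median 16.2) in liver, 10.5 to 33.2 (median 24) in eWAT and at most 1.07 in gastrocnemius. The log2 difference of Gata6 was 4.32 ± 0.26 against liver, 3.75 ± 0.24 against eWAT and 8.67 ± 0.41 against gastrocnemius (largest adjusted p = 2.0e-14), with no overlap of libraries. Gata4, the later factor of this layer and a liver factor, was at 9.81 to 14.9 (median 12.2) CPM in morula and 9.55 to 15.7 (median 11.6) in liver, where groups overlapped (0.08 ± 0.23, adjusted p = 0.772). Of the basement membrane genes that the layer secretes, Col4a1 was below all 18, at 4.48 to 8.81 (median 6.78) CPM in morula and 467 to 758 (median 555) in eWAT (-6.38 ± 0.21, adjusted p = 1.5e-20). Lamb1 lay between the tissues, at 34.7 to 58.5 (median 46.2) CPM in morula, above liver (2.14 ± 0.22, adjusted p = 7.2e-10) and below eWAT (-1.89 ± 0.19, adjusted p = 3.1e-10). Against gastrocnemius Lamb1 was 0.41 ± 0.21 (adjusted p = 0.0695), with -0.58 when counts were divided by length.

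Egg proteins were present at low levels apart from a few genes. Of 27 members 8 were tested, and all 8 were embryo-restricted (100%, against 29.3% of all genes). The others did not pass the filter on low counts. Of the 8, 2 had no tissue count and passed through morula counts alone, so that their call followed from the filter. Without morula HFD library 1, without LFD library 3 or without the mtDNA-encoded genes 5 were embryo-restricted, and 16 without a filter. Khdc3 (Filia), of the subcortical maternal complex, was at 524 to 646 (median 599) CPM in morula with no count in any tissue, at least 1437-fold higher in each. Its partners in the complex were far lower, with Nlrp5 (Mater) at 4.3 to 9.05 (median 6.51) CPM and Ooep at 2.53 to 3.83 (median 3.04), and neither had a tissue count. Per length, as TPM (CPM divided by gene length and scaled to the same total), the morula medians were 585 for Khdc3, 2.75 for Nlrp5 and 2.9 for Ooep. Gdf9, the growth factor that oocytes send to their follicle cells, was at 4.35 to 9.19 (median 8.35) CPM and at most 2.56 in a tissue library. Ago2, the slicing Argonaute that the embryo needs from the egg, was at 899.9 to 1386 (median 1357) CPM and at most 112 in any tissue library, and Trim28, a co-repressor that protects imprints, at 263 to 299.6 (median 275) against at most 49.5. Both had counts in all 18 tissue libraries, and morula and tissue libraries did not overlap. Trim28 belongs to the DNA methylation list as well and is counted in both.

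Genes of the 2-cell stage, when the embryo's genome is first switched on, were mostly low in morulae. Of 26 members only Obox6, Tdpoz1 and Tdpoz2 passed the filter, and all 3 were embryo-restricted with no tissue count (29.3% of all genes were embryo-restricted). They passed through morula counts alone, as did all 188 tested genes with no tissue count. Their call thus followed from the filter and is no test. Obox6, a homeobox gene, was at 103 to 143 (median 116) CPM, and Tdpoz2, of a family of BTB-domain proteins, at 80.9 to 134 (median 94.8). Zscan4a, a telomere-linked gene of that stage, was at 0 to 7.55 (median 2.18) CPM, Zscan4b at 0 to 2.57 (median 0.487) and Tcstv3 at 3.32 to 33.5 (median 8.72), all without a tissue count and none tested. Without eWAT library 4, or without gastrocnemius library 1, 6 members were embryo-restricted, and 5 without morula HFD library 1 or with the LFD morula libraries alone. The summed level of the group was 235 to 441 CPM in morula and 0 in every liver and gastrocnemius library, and it reached 3.66 in eWAT library 4. Of the 3 genes that passed, 2 have transcript ends that occur in another gene's transcript, and members of these families cannot be told apart with certainty.

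Other genes had large differences and no tissue count. Trim43b, a tripartite-motif gene, was at 654 to 914 (median 739.8) CPM, at least 1870.1-fold higher than in each tissue, and its neighbour Trim43a at 829 to 1183 (median 959) with 1 tissue count. Crxos, a homeobox gene, was at a median of 588 CPM and at least 1404-fold higher, and Alppl2, an alkaline phosphatase of the placental type, at 407 to 496 (median 477) and at least 1109-fold. Pramel4 was at 388 to 501 (median 448) CPM and at least 1082-fold higher, and Pramel6, of the same family, at 325 to 389 (median 365) and at least 873-fold. The gene ENSMUSG00000079808 on the unplaced scaffold GL456212.1, which has no name in the tables, was at 388 to 474 (median 449) CPM and at least 1061-fold higher. For none of these did a morula library fall near the tissue libraries.

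Enzymes that write and erase DNA methylation were embryo-restricted with 1 exception among those tested. Of 11 members 10 were tested and 9 (90%, against 29.3% of all genes) were embryo-restricted. Median log2 differences were 5.14, 4.49 and 5.12 (5.11, 4.49 and 4.28 with members at 0 set to their bound). None of the 10 has a transcript end shared with another gene. Among the demethylating dioxygenases, Tet2 was at a median of 698 CPM and at most 754 in morula and at most 61.2 in the tissue libraries, with 4.67 ± 0.18, 3.75 ± 0.17 and 3.90 ± 0.18 against liver, eWAT and gastrocnemius. Tet1 was at 289.9 to 402 (median 369) CPM against at most 2.75, with 8.05 ± 0.31 and 7.67 ± 0.28 against liver and eWAT. It was 857-fold (95% counting interval 293 to 4158) above gastrocnemius. Neither gene had a tissue library near its morula range. Tet3, the form that acts in the zygote, was the exception, at 14.6 to 31.8 (median 21.6) CPM in morula and 10 to 26.7 (median 14.6) in liver, 8.43 to 24 (median 17.1) in eWAT and 0 to 20.7 (median 11.7) in gastrocnemius. It was 0.43 ± 0.29 (adjusted p = 0.17) and 0.38 ± 0.28 (adjusted p = 0.195) against liver and eWAT. Against gastrocnemius it was higher, by 0.78 ± 0.32 (adjusted p = 0.0257), a call lost without morula HFD library 2 (0.68). With morula counts divided by length the sign turned in all 3 tissues (-1.36, -1.31 and -0.96). Of the writers, Dnmt3a was at 161 to 209.8 (median 183) CPM, Dnmt3b at 92.4 to 117 (median 106), Dnmt3l at 10.6 to 16.2 (median 13.2) and the maintenance enzyme Dnmt1 at 53.8 to 74.3 (median 65.4). Dnmt1 was highest among the tissues in eWAT library 4 (23.1 CPM), still below every morula library, and Uhrf1, its recruiter, was at 11.7 to 22 (median 16.6) against at most 1.16. Dnmt3a was higher than in gastrocnemius by 1.99 ± 0.16, and by 0.26, not past the threshold, after division by length.

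Cell cycle and DNA replication genes were far higher in the embryos than in the tissues. All 36 members were tested, 33 (91.7%, against 29.3% of all genes) were embryo-restricted, and median log2 differences were 7.35, 5.75 and 6.71, the last 6.54 with members at 0 set to their bound. Their summed level was 4608 to 4929 CPM in morula and at most 142 in liver, 213 in eWAT and 105 in gastrocnemius, and each of the 30 members without a shared transcript end was embryo-restricted. Ccna2 (cyclin A2) was at 449 to 546 (median 503) CPM in morula, at most 2.01 in liver and 2.72 in eWAT, and 0 in gastrocnemius. Its difference was 9.97 ± 0.36 against liver and 8.39 ± 0.30 against eWAT, and at least 1201-fold against gastrocnemius. Ccnb1 (cyclin B1), which starts mitosis, was at 241 to 254 (median 246) CPM with 3 counts in all tissues, and Cdc20, which starts anaphase, at 119 to 136 (median 132) with counts in eWAT alone. Rrm2, which makes deoxynucleotides, was at 366 to 415 (median 391) CPM and at most 4.53 in a tissue library, Kif11, the spindle motor, at 101 to 119.9 (median 112) with 1 tissue count, and Mki67 at 338 to 464 (median 425) against at most 4.49. The replicative helicase subunit Mcm7 was closer, at 78.6 to 92.9 (median 87.3) CPM against at most 36.2, with 1.82 ± 0.15 against eWAT. The 3 exceptions were Gins2, Ccnd1 and Ccnd3. All 251 windows in the transcript end of each also occur in another gene, so that their counts are uncertain. Ccnd1 (cyclin D1), which answers growth factors, was at 15.1 to 22.8 (median 20.1) CPM in morula, lower than the 21 to 62.3 (median 50.6) of eWAT (-1.29 ± 0.24, adjusted p = 2.1e-05), and it overlapped with liver (-0.30 ± 0.26, adjusted p = 0.276). Gins2, of the helicase complex, was at 2.96 to 4.9 (median 3.72) CPM and overlapped with eWAT at 2.75 to 6.61 (median 4.33) (-0.22 ± 0.30, adjusted p = 0.48).

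Ribosome biogenesis genes, which act in the nucleolus, were higher in morula than in each tissue in 18 of 20 members. Of the 20, 17 (85%, against 29.3% of all genes) were embryo-restricted, with median log2 differences of 2.78, 2.97 and 2.61. Npm1 (nucleophosmin) was at 12542 to 17013 (median 15704) CPM in morula, 14.7 to 43.2 (median 24.3) in liver, 23.1 to 36.7 (median 28.3) in eWAT and 66.3 to 89.9 (median 84.8) in gastrocnemius. Its difference was 9.15 ± 0.29, 9.08 ± 0.29 and 7.55 ± 0.28 (largest adjusted p = 2.2e-19). No window of its transcript end was shared, as for Pgk1 and Hprt below, which were also low in the tissue libraries. Kit and stage cannot be told apart here either, so that these values are not taken as the tissues' levels of Npm1. Npm1, at a median of 11307 TPM, was among the 12 embryo-restricted genes highest per length in morula, and Rrp9, Rrs1 and Tsr1 were the members that were not embryo-restricted. Ncl (nucleolin) was at 3377 to 3949.7 (median 3679.7) CPM against at most 432, and Wdr43 at 443 to 545 (median 472) against at most 149, both with no overlap. Nop56 was at 775 to 1052 (median 824) CPM against at most 8.58 and Fbl (fibrillarin) at 139 to 169 (median 155) against at most 2.56. For Nop56 161 and for Fbl 150 of the 251 windows in the transcript end also occur in another gene, so that their tissue counts are uncertain. With a gap of 4-fold asked between the groups, 8 members were embryo-restricted.

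**Figure D2:**
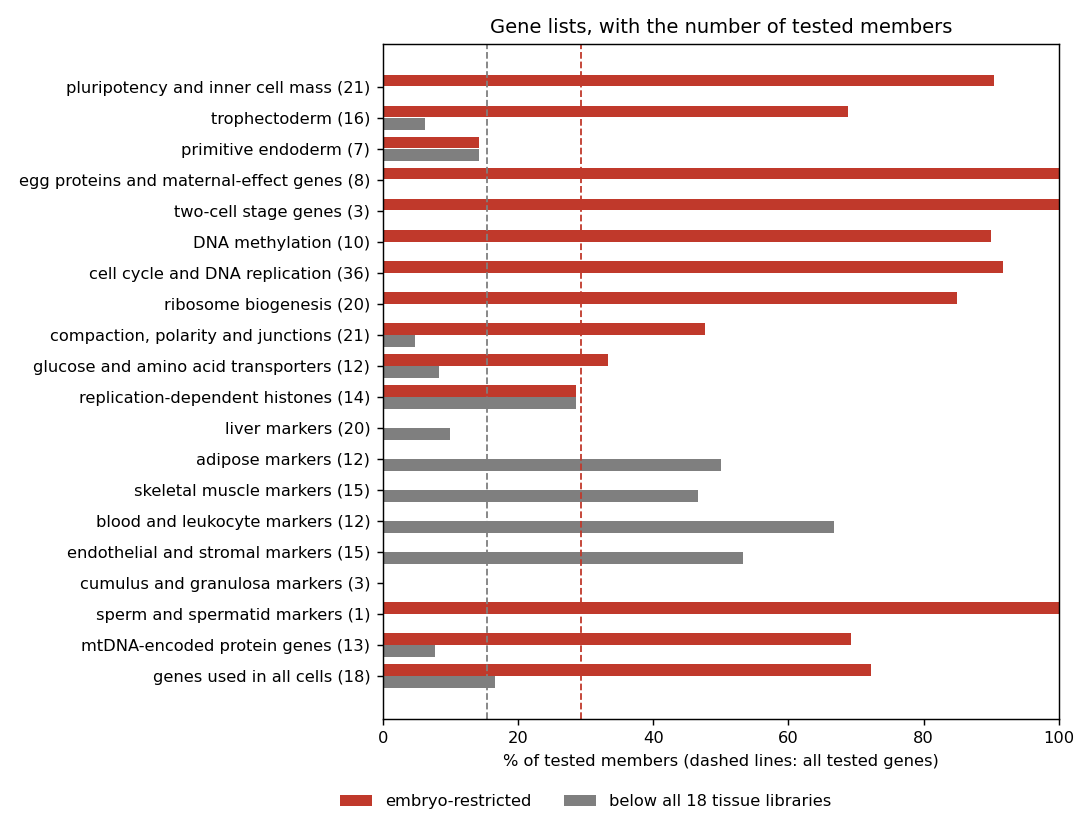
Percentage of tested members of each gene list that were embryo-restricted or below all 18 tissue libraries; bars start at 0 and each label gives the number of tested members. Cell cycle, pluripotency and DNA methylation genes reach 91.7%, 90.5% and 90%, while the liver, adipose, muscle, blood and endothelial marker lists hold no embryo-restricted member. Dashed lines mark the shares over all genes tested, 29.3% and 15.4%.

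Compaction and polarity genes gave a mixed picture, with 10 of 21 tested members embryo-restricted (47.6%, against 29.3% of all genes). Morulae were higher than each tissue in 13 members, and Ctnnb1 was below all 18. Cdh1 (E-cadherin), which holds blastomeres together, was at 296 to 383 (median 334) CPM in morula, 44.9 to 122 (median 84.5) in liver, 0 to 106 (median 0.681) in eWAT and at most 10.2 in gastrocnemius. It was higher than in liver by 1.98 ± 0.74 (adjusted p = 0.0151) and than in eWAT by 4.11 ± 0.81 (adjusted p = 3.3e-05), and by 9.48 in eWAT without library 4, the only eWAT library above 1.05 CPM. Epcam, another adhesion protein, was at 91.4 to 120.1 (median 111) CPM in morula and 142 in eWAT library 4, so that it was not embryo-restricted, though higher in each test; against eWAT it was 2.11 ± 0.89 (adjusted p = 0.0317) with that library and 9.29 without it. With all 6 eWAT libraries, the call against eWAT was lost with library totals in place of TMM scaling (1.49) and with the HFD (2.24) or the LFD (2.26) morula libraries alone. Without that library 13 members of the group were embryo-restricted. Ctnna1 (alpha-catenin) was at 335 to 388 (median 354) CPM and above each tissue (1.84 ± 0.13, 1.32 ± 0.13 and 3.01 ± 0.15), whereas Ctnnb1 (beta-catenin), its partner at the junction, was at 116 to 169 (median 129.8) and below each (-1.11 ± 0.16, -1.51 ± 0.16 and -1.38 ± 0.16). For both catenins the morula libraries lay outside the range of all 18 others, and all 251 windows in the transcript end of Ctnnb1 also occur in another gene. Cldn6, a tight junction protein of early epithelia, was at 53.1 to 98.8 (median 73.6) CPM against at most 0.916, and Pard6b, of the apical polarity complex, at 78.5 to 129 (median 98.2) against at most 4.39.

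Of 14 glucose and amino acid transporters 12 were tested, and 4 were embryo-restricted (33.3%, near the 29.3% of all genes): Slc2a3, Slc7a5, Slc1a1 and Slc6a14. Slc2a3 (GLUT3), the high-affinity glucose carrier, was at 96 to 129 (median 114) CPM in morula and at most 1.06 in liver, 8.91 in eWAT and 13.6 in gastrocnemius (8.13 ± 0.36, 3.85 ± 0.22 and 3.39 ± 0.24). Slc1a1, a glutamate and aspartate carrier, was at a median of 228 CPM, with none in liver and at most 9.34 in the other tissues. Slc2a2 and Slc2a4 were lower in morula than in some of the tissues. Slc2a2 (GLUT2) had no morula count and was at 289.5 to 362 (median 329.6) CPM in liver, at least 7939-fold lower in morula. Slc2a4 (GLUT4), the insulin-responsive carrier, was at 0.16 to 1.24 (median 0.696) CPM in morula, 22.8 to 58.1 (median 32.9) in eWAT and 282 to 409.8 (median 346) in gastrocnemius (-5.64 ± 0.29 and -8.93 ± 0.31). Liver held 2 Slc2a4 counts in all, and the ratio of morula to liver was 3.6 (95% counting interval 0.946 to 30.6; adjusted p = 0.0665). Slc2a1 (GLUT1) was at 31.4 to 58.6 (median 50.4) CPM and higher in each test (1.24 ± 0.28, 1.31 ± 0.27 and 1.47 ± 0.30; largest adjusted p = 1.9e-04), but overlapped with eWAT library 4 at 44.2. Slc38a2, a carrier of small neutral amino acids, was below all 18, at 5.65 to 8.57 (median 6.64) CPM in morula and 186 to 409 (median 278) in liver (-5.38 ± 0.20). Slc3a2, which carries Slc7a5 to the membrane, was at 92.5 to 119.7 (median 107) CPM in morula and 57.2 to 133 (median 98) in eWAT (0.21 ± 0.18, adjusted p = 0.273). Dividing morula counts by length raised the embryo-restricted members to 7.

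Replication-dependent histone genes, whose mRNAs end in a stem-loop and not in a poly(A) tail, were low in morula, with a summed level of 87.9 to 173 CPM against 302 to 1021 in the tissue libraries. Of 66 members 14 were tested: 4 were embryo-restricted (28.6%, near the 29.3% of all genes) and 4 below all 18, and the median log2 differences were 0.81, -0.67 and -2.18. Hist1h2bl was at 8.49 to 16.7 (median 11.1) CPM with no tissue count, at least 28.7-fold higher, Hist1h1b at 9.11 to 15.5 (median 10.4) against at most 0.196, and Hist1h4d at 15 to 32.5 (median 27.6) against at most 9.43. The linker histone Hist1h1c was at 4.56 to 8.26 (median 7.97) CPM in morula and 442 to 731 (median 644) in gastrocnemius (-6.43 ± 0.26), and Hist1h2bc at 0.856 to 4.06 (median 2) and 240.3 to 333 (median 284) in liver (-6.92 ± 0.28), both without overlap.

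Genes without morula counts included products of connective tissue, fat and blood. Of the 1960 genes below all 18 libraries, 162 had no count in any morula library, and the 10 with the largest fall were all of this kind. Car3, the carbonic anhydrase of fat and muscle, was at 232 to 607 (median 359) CPM in liver, 6799.7 to 17390.4 (median 14015) in eWAT and 1527 to 3088 (median 1836) in gastrocnemius, at least 9674-fold lower in morula in each tissue. Dcn (decorin), a proteoglycan of connective tissue, was at 317 to 439 (median 362), 1709.6 to 3109 (median 2835) and 906 to 1329.6 (median 1146) CPM in these tissues, at least 9003-fold lower in morula. Hbb-bs, an adult beta-globin of red cells, was at 292 to 475 (median 362), 2142 to 8652 (median 5384) and 431 to 577 (median 535) CPM, at least 9164-fold lower. No count of these 3 genes was found in the 6 morula libraries. The same held for Hbb-bt (at least 1674-fold), the small membrane protein Fxyd1 (2709), the methyltransferase Inmt (2150.5), Cavin2 of caveolae (1663), Palmd (1454), the chemokine Cxcl12 (1235) and the water channel Aqp1 (1097), each as the smallest bound over the 3 tissues.

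Lists of markers of grown cells held no embryo-restricted member. Among 20 liver markers 8 were lower in morula than in each tissue (27.8% of all genes were). Below all 18 were 2 (10%, against 15.4% of all genes), or 5 without gastrocnemius library 1. Alb (albumin) was at 24619 to 48479.8 (median 41453) CPM in liver and had 2 counts in all morula libraries, and Ahsg (fetuin-A) was at 14188 to 24286 (median 21009) in liver and at most 0.934 in morula (-15.24 ± 0.86). Tat, an enzyme of tyrosine breakdown, was the liver marker highest in morula, at 16 to 27.6 (median 20.4) CPM, above eWAT (4.12 ± 0.60) and below liver (-3.57 ± 0.44), followed by Apoa1, a protein of plasma lipoproteins, at 5.06 to 10.3 (median 7.58). Among 12 adipose markers 9 were lower than in each tissue and 6 (50%) below all 18, against 27.8% and 15.4% of all genes. Cfd (adipsin) was at 10389.5 to 18838 (median 11526) CPM in eWAT, with 2 counts in all morula libraries. Pnpla2, a triglyceride lipase, was the adipose marker highest in morula, at 12.9 to 23.4 (median 20) CPM, still below all 18 (-2.11 ± 0.25 against liver). Among 15 muscle markers 12 were lower than in each and 7 (46.7%) below all 18, against the same shares of all genes. Myh4, the myosin of fast fibres, had no morula count against 16093 to 48754 (median 46104) CPM in gastrocnemius. Mylpf, a myosin light chain, was the highest of them in morula, at 21.2 to 31.9 (median 23.9) CPM, above liver (2.42 ± 0.69, adjusted p = 0.00208) and below gastrocnemius (-7.70 ± 0.70). Mylpf alone made up most of the summed muscle markers of morula, 21.5 to 33.2 CPM.

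Markers of cells that could come with the embryos, or that the tissues hold besides their own type, were summed in the same way. Among 12 tested blood and leukocyte markers 9 were lower in morula than in each tissue and 8 (66.7%) below all 18. The shares of all genes were 27.8% and 15.4%. The summed level of the list was 21.6 to 32.3 CPM in morula against at least 503 in any tissue library. The beta-globin genes Hbb-bs and Hbb-bt were at 0 in morula and the alpha-globin genes Hba-a1 and Hba-a2 had 4 counts each, and Cd74, of antigen presentation, made up most of the sum at 15 to 24.9 (median 19.1) CPM, overlapping with liver (-0.18 ± 0.27, adjusted p = 0.54). Among 15 endothelial and stromal markers 14 were lower than in each and 8 (53.3%) below all 18, against the same shares of all genes. Their sum was 24.9 to 37.0 CPM in morula, of which Pecam1, at 21.8 to 33.2 (median 28.9), was the largest part. Of 15 markers of cumulus and granulosa cells, which surround the egg, 7 had no morula count, 3 were tested, and the sum was at most 17.6 CPM in morula, led by Col4a2 at 6.89 to 9.42 (median 8.25). Of 15 sperm and spermatid markers 6 had no morula count and Odf2, which also serves centrioles, was the only one tested, at 35.1 to 44.6 (median 36) CPM; Prm2 (protamine 2) was at most 0.345 in morula and 15 in eWAT library 4. Odf2 was embryo-restricted by TMM (0.69 ± 0.17 against eWAT), and not after division by length, where it was -0.25 against eWAT.

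**Figure D3:**
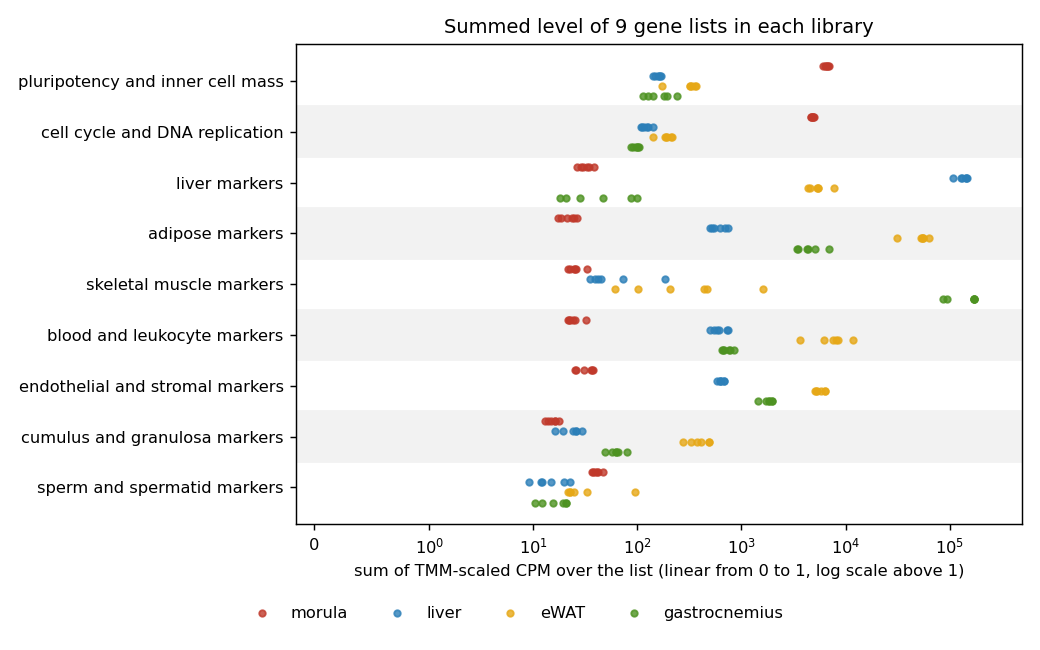
Summed level of the pluripotency, cell cycle, liver, adipose, muscle, blood, endothelial, cumulus and sperm lists in every library. Levels are TMM-scaled CPM on an axis that is linear from 0 to 1 and logarithmic above. Points are libraries of morula, liver, eWAT and gastrocnemius, and the other lists are not drawn. The pluripotency sum is 6041 to 6914 in morula and at most 369 in any tissue library, and the blood sum is 21.6 to 32.3 in morula and at least 503 in the tissues.

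Genes of the mitochondrial DNA, rRNA and tRNA genes among them, took 25.1% ± 1.56 (SD, n = 6) of all counts in morula. The share was 24.2% ± 2.23 in liver, 16.7% ± 1.09 in eWAT and 37.3% ± 5.38 in gastrocnemius (SD, n = 6 each). Morula was higher than eWAT and lower than gastrocnemius with no overlap (two-sided exact permutation test over 924 arrangements, p = 0.00216, adjusted p = 0.00325 over 3 comparisons), and its difference from liver of 0.889 percentage points was within the spread of the libraries (exact permutation p = 0.431). For the 13 protein genes alone, the summed level was 52742 to 72574 CPM in morula, overlapping with 49404 to 79940 in eWAT. It was 138755 to 173519 in liver and 240473 to 358903 in gastrocnemius, above every morula library. Single genes departed from the share of all mtDNA genes in both directions. Of the 13 protein genes, 9 (69.2%, against 29.3% of all genes) were embryo-restricted. mt-Nd4 was below all 18, and mt-Nd1, mt-Nd2 and mt-Cytb lay between. mt-Co1, of complex IV, was at 10226 to 12926 (median 11938) CPM in morula, 1103 to 1720.0 (median 1413) in liver, 414 to 540.4 (median 494) in eWAT and 2050.4 to 3239 (median 2909) in gastrocnemius (3.07 ± 0.18, 4.60 ± 0.20 and 2.07 ± 0.18). mt-Nd4, of complex I, was at 5218 to 7767 (median 6494) CPM in morula and 93417 to 177056 (median 159054) in gastrocnemius (-3.22 ± 0.28, -2.65 ± 0.28 and -4.54 ± 0.30). mt-Nd6, the protein gene on the other strand, was at 1219.9 to 2008 (median 1691) CPM in morula and at most 29.4 in a tissue library.

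Within the mtDNA the tissue libraries were uneven from gene to gene. mt-Co2, mt-Co3, mt-Atp6 and mt-Atp8, neighbours along the mtDNA, had no count in any of the 18 tissue libraries, and were at 30 to 82 (median 54.6), 8.02 to 20.1 (median 14.2), 42.8 to 149 (median 104) and 22.6 to 45.5 (median 38.5) CPM in morula. mt-Nd3 had counts in gastrocnemius alone and mt-Nd4l in 2 tissue libraries, at most 6.38 and 0.547 CPM. Every one of the 251 windows in the end of mt-Co2, 248 of those of mt-Atp6 and 250 of those of mt-Co3 also occur in transcripts of another annotated gene. The same holds for 0 of the 155 windows of mt-Atp8, which had no tissue count either, and for all 251 of mt-Co1, which was at 414 to 3239 CPM in the tissue libraries. Grown tissues are known to use these genes heavily, so that their 0 cannot be read as absence from the tissue. After division of morula counts by length, mt-Cytb turned from -0.37 ± 0.22 to 1.72 against liver and from -1.65 ± 0.23 to 0.46 against gastrocnemius, mt-Nd1 from -1.49 ± 0.22 to 0.85 and mt-Nd2 from -2.15 ± 0.28 to 0.06 against liver, and none of the 13 genes was below all 18. The tRNA gene mt-Tl1 was at 125 to 210.0 (median 171) CPM in morula and at most 27.4 in a tissue library, and at 4473 TPM in morula.

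**Figure D4:**
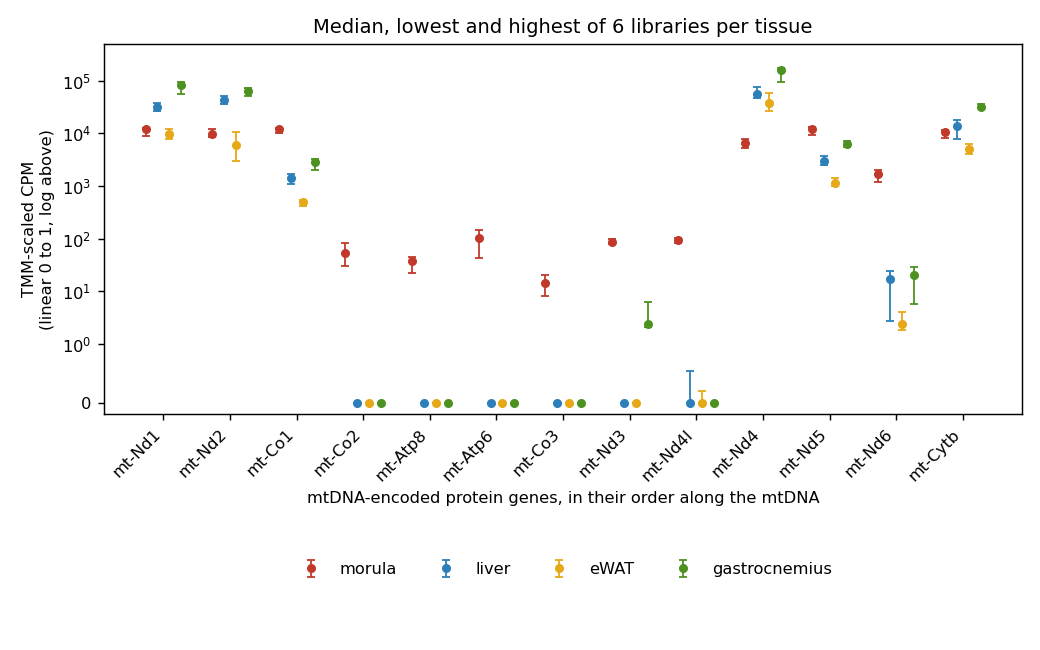
Level of the 13 mtDNA-encoded protein genes in morula, liver, eWAT and gastrocnemius, in their order along the mtDNA; points are medians and bars run from the lowest to the highest of 6 libraries, in TMM-scaled CPM on an axis that is linear from 0 to 1 and logarithmic above. mt-Co2, mt-Atp8, mt-Atp6 and mt-Co3 lie at 0 in all tissues and between 8.02 and 149 CPM in morula libraries, and mt-Nd4 is lowest in morula.

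Genes listed as used in all cells also differed between morula and tissue. Of 18 such genes 13 (72.2%) were embryo-restricted, which is far over the 29.3% of all genes, and 3, B2m and Sdha among them, were below all 18. Gapdh, the glycolytic enzyme, was at 173 to 290.2 (median 231) CPM in morula and at most 1.92 in liver, 1.93 in eWAT and 5.57 in gastrocnemius. Eef1a1, an elongation factor of translation, was at 1118 to 1391 (median 1197) CPM in morula and at most 18.5 in a tissue library, and Ppia, a prolyl isomerase, at 285 to 361 (median 304) against at most 4.72. Liver is known to rely on all 3 and muscle on Gapdh, so that these tissue values are not taken as the tissues' levels. Of the windows of 50 bases in the transcript end, 82.9% of those of Gapdh, 78.1% of those of Ppia and 33.1% of those of Eef1a1 also occur in transcripts of other genes, while none of those of Pgk1 and Hprt do. Pgk1 was nonetheless at 11.4 to 15.6 (median 14.2) CPM in morula against 4 counts in all tissue libraries, and Hprt at 1387 to 1541 (median 1471) against at most 106. B2m, the light chain of MHC class I, went the other way, at 15.5 to 21 (median 18.1) CPM in morula and 3977 to 6151 (median 5754) in liver (-8.18 ± 0.23). The chaperone genes Hsp90aa1 and Hsp90ab1 were among the 12 highest embryo-restricted genes per length, at 3608 and 3777 TPM, with Hsp90ab1 at 5453 to 6287 (median 5821) CPM in morula and 1750.3 to 3178 (median 2220.3) in liver (1.31 ± 0.20).

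Sequence shared between genes went with the embryo-restricted call. Of 12743 tested genes with a transcript of 50 bases or more, 2048 (16.1%) had at least 1 window in their last 300 bases that another gene's transcript holds; 826 of these (40.3%) were embryo-restricted, against 2905 of 10695 others (27.2%). Among protein-coding genes the shares were 36.5% and 27.8%, and among processed pseudogenes 70.4% (133 genes) and 5.88% (2 of 34). Of the embryo-restricted genes with no tissue count, 98 of 182 (53.8%) had a shared window. In all, 135 of 223 processed pseudogenes (60.5%), 3434 of 11802 protein-coding genes (29.1%) and 46 of 134 long intergenic RNAs (34.3%) were embryo-restricted. How reads that match several genes were counted is not given in the sources used here, and what part this had in the calls was not tested. Gene length moved with the differences as well: the median difference from liver was -0.86 in the fifth of the shortest genes and 0.44 in the fifth of the longest, while embryo-restricted genes made up 27.8% and 30.9% of these.

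**Figure D5:**
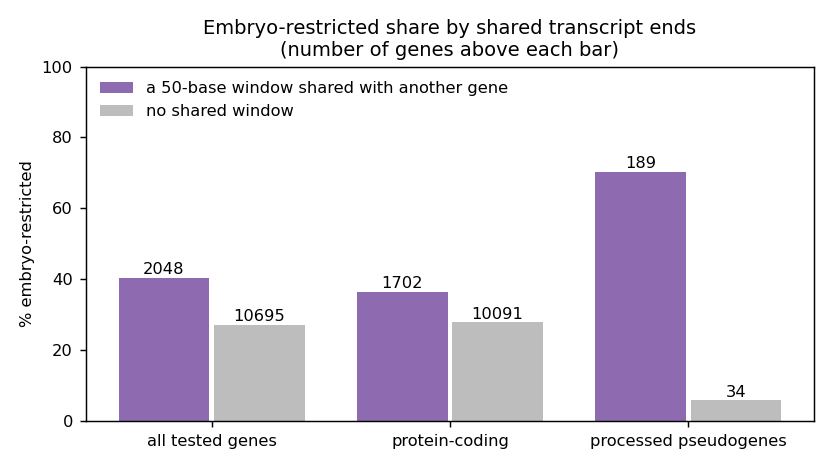
Percentage of tested genes that were embryo-restricted, for genes with and without a 50-base window of the transcript end that another gene holds, over all genes, protein-coding genes and processed pseudogenes; bars start at 0 and carry the number of genes. Genes with a shared window stand at 40.3%, 36.5% and 70.4%, those without at 27.2%, 27.8% and 5.88%.

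Per length, the highest embryo-restricted genes were 3 short genes annotated as miRNAs, Gm23935, Gm24187 and Gm24270, with medians of 102586, 51911 and 48010.3 TPM in morula. Their levels were 2108 to 3528 (median 2881), 1039 to 2068 (median 1494) and 1025 to 1655 (median 1381) CPM, with 2 tissue counts for Gm23935 and none for the others. They are shown because their sequences, read from GENCODE transcripts (GRCm38) on the gene's strand, are nearly the same; capitals mark the base in which one differs.
Gm23935 (chr16:11144125-11144181, + strand): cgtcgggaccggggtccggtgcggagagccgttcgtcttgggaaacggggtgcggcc
Gm24270 (chr9:56223715-56223771, - strand): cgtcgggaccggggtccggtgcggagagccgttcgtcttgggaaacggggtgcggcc
Gm24187 (chr13:9834469-9834525, - strand): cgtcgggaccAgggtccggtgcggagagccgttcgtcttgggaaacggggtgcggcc
Gm23935 and Gm24270 are identical over their 57 bases, and the transcript of Gm24245 holds the same run; Gm24187 differs by G11A, counted from 1 at the 5′ end. None of the 3 matched a RefSeq miRNA. Their counts cannot be assigned to 1 locus with certainty. CT010467.1 on chromosome 17, which had 22382 to 33929 (median 30147) CPM in morula and 3 counts in all tissues, overlaps on the opposite strand Gm42418, a gene of the tissue tables that the morula table does not hold. What part this had in its difference was not tested. Both tables were joined over 54500 genes, of 55487 in the morula table and 54838 in the tissue tables.

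Whether the embryo-restricted genes varied with the diet of the father was asked within the 6 morula libraries. Of 13447 genes tested, 0 (0%) passed the threshold by edgeR, and 0 of the 3737 embryo-restricted genes; 858 and 253 had an unadjusted p under 0.05, and DESeq2 called 18 and 14. Of the embryo-restricted genes 1839 were higher and 1898 lower with HFD, with a median log2 difference of -0.00303. The smallest adjusted p among them, 0.456, was shared by several genes, of which mt-Atp6 had the smallest unadjusted p, with -0.98 ± 0.19 (HFD over LFD). In 3 morula samples the description gives the opposite diet to that in title and treatment, and the latter were used.

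Cauda sperm, made with the same kit as the morulae and read in single ends, gave a second reference. Genes of the mtDNA took 78.1% to 84.3% of counts in HFD sperm and 43.5% to 64.7% in LFD sperm, against 22.8% to 26.9% in morula. What part this had in the counts below was not tested. A fit of 6 morula and 6 sperm libraries held 12245 genes. Of these, 3759 (30.7%) were higher in morula with the lowest morula library above all 6 sperm libraries. Of the 3737 embryo-restricted genes 2458 (65.8%) met this. Scaled by library totals, 5287 of all 12245 genes and 3066 embryo-restricted ones (82.0%) did. The embryo-restricted genes, and the 188 among them with no tissue count, were chosen by values of these same morula libraries. Shares over that of all genes thus followed largely from the choice and are no test. Of the 188 genes with no tissue count 175 lay above all sperm libraries. Among the 13 that did not, Mov10l1, a helicase of the piRNA pathway of germ cells, had its lowest morula library at 3.41 CPM and its highest sperm library at 22.5, with -1.08 ± 0.56 (adjusted p = 0.100), and Oser1, an oxidative stress gene, 7.66 and 50.9 with -0.74 ± 0.46 (adjusted p = 0.169); both were chosen after their values were seen. Neither difference passed the threshold.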

How the data were processed

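Counts were used as deposited. Per the labels and the study's methods, the authors trimmed reads with BBDuk, aligned them with STAR to the Ensembl GRCm38 genome and counted reads per gene with featureCounts, with no normalization; how multi-mapping reads and strand were treated is not given in the sources used here. Morula and sperm libraries were made from RNeasy RNA with the Nextera kit, and tissue libraries from TRIzol RNA with the QuantSeq 3′ kit.

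The morula and tissue tables were joined by gene identifier. Libraries were scaled by TMM, genes were filtered with filterByExpr (minimum count 10), and edgeR 4.0.16 (R 4.3.3) fitted 4 tissue levels with its quasi-likelihood test, at a Benjamini-Hochberg adjusted p of 0.05. DESeq2 1.42.0 and limma 3.58.1 were alternatives, with other scalings, no filter, a 4-fold gap and libraries left out. The fit over 4 tissue levels and its calls were tested on simulated counts, and the other steps were not. NOISeq, the study's test, was not run. Depth was 369772 to 12153141 counts a library, and intervals (95%) and floors (3 counts) cover counting error only. The shares of mtDNA counts were compared by an exact permutation test.

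The members and gene lists were chosen with earlier results of these data known. Named genes were the 12 embryo-restricted genes highest per length, the 10 with the largest differences, the 10 with the largest falls and, per list, the 3 highest in morula and up to 2 highest in tissue; other genes were chosen after their values were seen. The shared windows were 50 bases long within the last 300 bases of the gene's principal GENCODE transcript (GRCm38; otherwise its longest), searched on both strands in all other genes' transcripts. The 6 round spermatid columns could not be matched to samples and were not used, so that cauda sperm stood alone. Results on a few genes are not reported here. Morula groups follow the title and treatment labels.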

Additional observations from a re-analysis of the deposited data

Results flagged for a closer look

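In groups of 6 libraries, the highest or lowest library was set against the others by Dixon's ratio of gap to range at its 95% critical value, for 373 groups of values; 30 passed, and chance passes about 1 in 20.

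Library 4 of eWAT stood away from the other 5 in 10 of these. Slc2a1 was at 44.2 CPM there, Dnmt1 at 23.1, Dab2 at 232 and Cd74 at 288. The summed levels in that library were 173 CPM for pluripotency genes, 569 for trophectoderm genes, 3.66 for two-cell genes, 3100.2 for compaction genes, 31324 for adipose markers and 95.4 for sperm markers. Which cells gave these values was not tested.

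In the other eWAT libraries, Fxyd1 was at 214 CPM and Cfd at 18838 in library 1, muscle markers summed to 1600.4 in library 3 and liver markers to 7810.0 in library 5. In liver, Tet2 was at 41.4 CPM in library 3, Cidec at 94.0, Hist1h1c at 447 and the muscle marker sum at 182 in library 1, and the compaction sum at 1149.7 in library 2. In gastrocnemius, Fabp4 was at 1147 CPM and Fxyd1 at 101 in library 2, and mt-Nd4 at 93417 and the sum of mtDNA protein genes at 240473 in library 4.

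In morula, Ppia was at 361 CPM in HFD library 2, Mylpf at 31.9 and the muscle marker sum at 33.2 in HFD library 3, and the sum of genes used in all cells at 12441 in HFD library 1. Dab2 was at 298 CPM in LFD library 1, blood markers summed to 32.3 in LFD library 2, and mt-Nd1 was at 9033 in LFD library 3. No morula library stood apart in more than 2 of these values.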

How the results depend on the processing

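Without a filter on low counts, 17645 genes differed from liver, 21299 from eWAT and 16232 from gastrocnemius, 7045 were higher in each and 5888 were embryo-restricted, as more genes were tested. A gap of 4-fold between the groups left 1592 embryo-restricted genes and 801 genes below all 18. For paternal diet in the embryo-restricted genes, DESeq2 called 14, 253 had an unadjusted p under 0.05, and leaving out a morula library gave 0 to 1, the latter without HFD library 2. With 1 library left out, counts were 10821 to 11152 against liver, 11277 to 11645 against eWAT, 10492 to 10717 against gastrocnemius, 3743 to 3951 embryo-restricted genes and 1962 to 2174 genes below all 18. Under the 4 other scalings and filters, each diet alone and each morula library left out, 3045 of the 3737 embryo-restricted genes kept that call, and 1443 of the 1960 below all 18.

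The fits without eWAT library 4 or gastrocnemius library 1, chosen after seeing the data, gave 3951 and 3891 embryo-restricted genes, and 2905 had no shared window. Directions turned for 12 of 7149 values of named genes, with causes not tested. Dividing morula counts by gene length gave 1.35 for Cd74, 1.72 for mt-Cytb, 0.85 for mt-Nd1, 0.0593 for mt-Nd2 and -1.36 for Tet3 against liver, -0.25 for Odf2 and -1.31 for Tet3 against eWAT, and 0.0674 for Klf2, -0.58 for Lamb1, 0.46 for mt-Cytb and -0.96 for Tet3 against gastrocnemius. Slc2a2 against gastrocnemius was -3.52 by limma-voom, but no library of either group held a count of it, so that this value shows no direction. Another 29 values lost and 43 gained the threshold. No paired analysis was possible because the count columns carry no replicate numbers from the labels. A fit with round spermatids was not run. Depth limits the tissues more than morula, most of all gastrocnemius library 1.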
